A study of Mus musculus with 8 samples.

Results

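Exchange factors switch on the small GTPases RAS and RAP by ejecting the bound GDP, so that GTP can load in its place. The RASGRF, RASGRP and SOS families have 8 genes (*Rasgrf1*, *Rasgrf2*, *Rasgrp1*, *Rasgrp2*, *Rasgrp3*, *Rasgrp4*, *Sos1* and *Sos2*), whose striatal transcripts were compared between mice with and without a postnatal deletion of *Bcl11b*. The members are all rows of the count table with these names, a choice of genes made with earlier results of these data known. All 8 were found among the 55376 features of the count table, and all 8 were among the 22173 genes with enough counts to be tested.

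RNA from the dissected striatum of 4 deletion mice and 4 control mice was sequenced, with 1 rRNA-depleted library per mouse. Deletion mice (*D9-Cre-Bcl11b* tm1.1Leid, spelled tm1.1 Lead in the sample labels) carried a floxed *Bcl11b* allele and a Cre transgene under regulatory elements of *Ppp1r1b*, the gene for DARPP-32, which is active in medium spiny neurons (MSNs), the projection neurons of the striatum. Control mice were Cre-negative and carried the same floxed allele in homozygous form, so that both groups share the floxed *Bcl11b* and only the deletion mice carry Cre. By the labels all 8 mice were females of the mixed strain C57Bl/129S2/Sv at 4 months of age. No group carried Cre without the floxed allele, so an effect of Cre itself cannot be told apart from the deletion. Each mouse keeps its label's number here (control 1 to 4, deletion 1 to 4).

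The 3 families answer to different signals. RASGRF proteins bind calcium-loaded calmodulin and couple glutamate receptors to RAS. Most RASGRP proteins bind diacylglycerol, most also bind calcium, and SOS proteins are brought to active receptor tyrosine kinases by the adaptor GRB2. In the striatum this route runs from glutamate and dopamine receptors through RAS to the kinases MEK and ERK, while RASGRP2 (also called CalDAG-GEFI) acts mainly on RAP1 and is known as a transcript rich in striatal projection neurons.

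Levels are CPM, counts scaled by total counts, with totals normalized by the TMM method, and are given as mean ± SD over 4 mice. Each log2 fold change sets deletion over control and comes with a standard error (SE) from the quasi-likelihood F-test of edgeR. Benjamini-Hochberg adjustment ran over all 22173 genes, and a gene passed at an adjusted p under 0.01. Total counts were 47059264 to 50213377 for the control libraries and 51536311 to 70247098 for the deletion libraries, so every deletion library was deeper than every control library.

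The targeted gene followed the labels. *Bcl11b* was at 477, 368, 446 and 281 CPM in control 1 to 4 and at 145, 141, 151 and 145 CPM in deletion 1 to 4. The groups did not overlap, the 4 deletion mice lay close together, and control 4 was the control nearest to them. The mean went from 393 ± 87.4 to 146 ± 4.16 CPM (log2 fold change -1.43, SE 0.13, adjusted p = 7.06e-05 by edgeR). These counts take in all exons of the gene and all cells of the tissue, with and without Cre.

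Of the 8 exchange factors, 1 was called higher and 1 lower in deletion mice. *Rasgrf2* rose 8.20-fold and *Rasgrp2* fell by 53.3%. The other 6, *Rasgrf1*, *Rasgrp1*, *Rasgrp3*, *Rasgrp4*, *Sos1* and *Sos2*, did not pass the test. Among all tested genes 8.78% were called in either direction, 4.87% higher and 3.91% lower. The groups did not overlap for 3 of the 8 members, *Rasgrf2* (higher), *Rasgrp2* and *Sos2* (both lower), against 22.0% of all tested genes (11.7% higher and 10.3% lower). With 8 members, these counts are too small to set their share apart from the background, and the results are those of the single genes.

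**Figure D1:**
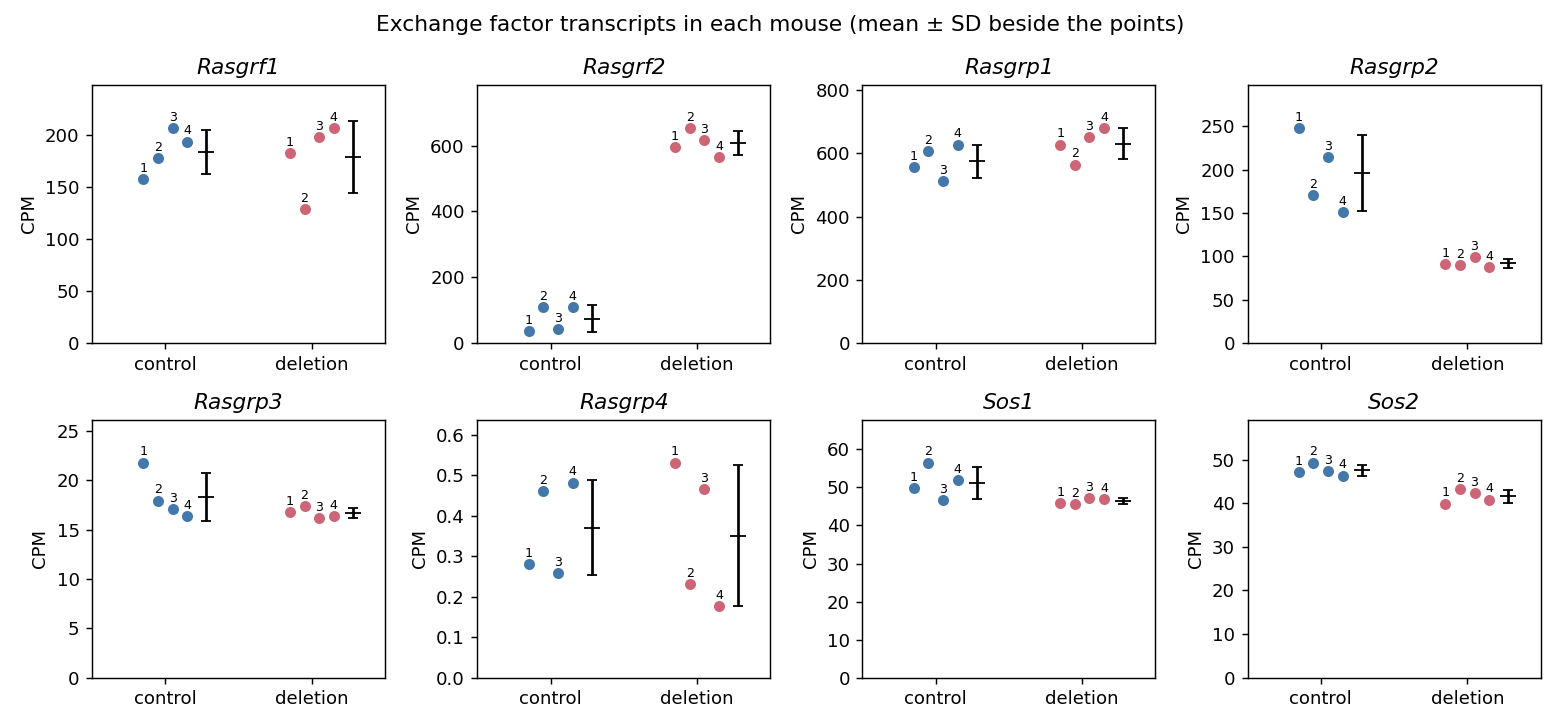
CPM of each exchange factor transcript in each mouse, 1 panel per gene with its own axis from 0; numbers are the mouse numbers, and the bars beside the points are the mean ± SD of 4 mice. *Rasgrf2* sits between 566 and 654 CPM in deletion mice and between 36.6 and 110 CPM in control mice, *Rasgrp2* is lower in all 4 deletion mice, and *Sos2* is separated by a small gap, while the other panels overlap.

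*Rasgrf2* lies on chromosome 13 (chr13:91880400-92131656, minus strand, GRCm38), with no other annotated gene overlapping it. Its protein is a calmodulin-regulated exchange factor for RAS that also acts on RAC. The window around its annotated RefSeq start, from 250 bases before to 50 after (GRCm38.p6, chr13:92131779-92132078, minus strand), is shown because this is the member with the larger change. The gene span above comes from GENCODE, which sets the start elsewhere, and the whole window lies upstream of that span. Capitals mark the E-box CACGTG and TGACGT, the core letters of the cAMP response element, which overlap by 2 bases here.
Rasgrf2: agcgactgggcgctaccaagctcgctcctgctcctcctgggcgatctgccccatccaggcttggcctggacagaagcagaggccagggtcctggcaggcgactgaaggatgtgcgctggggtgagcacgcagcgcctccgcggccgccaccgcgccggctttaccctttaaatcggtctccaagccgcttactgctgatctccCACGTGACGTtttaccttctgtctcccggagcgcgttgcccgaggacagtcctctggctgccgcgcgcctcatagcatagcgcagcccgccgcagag
The letters TGACGT occurred on either strand in 7.51% of 32851 RefSeq windows of this length, and CACGTG in 7.15%. TGACCA, the letters bound by the BCL11B paralog BCL11A, were searched on both strands as well. They were in 0 of the windows of the 7 members that have one and in 13.6% of all windows, and a match or its absence in such a window says nothing of binding.

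*Rasgrf2* was low in control mice and high in deletion mice. It was at 36.6, 108, 42.9 and 110 CPM in control 1 to 4, from 1822, 5150, 2154 and 5231 counts. It was at 597, 654, 617 and 566 CPM in deletion 1 to 4, from 41561, 36759, 39754 and 28886 counts. The lowest deletion mouse was far above the highest control, and the controls themselves split into a lower pair (control 1 and control 3) and a higher pair (control 2 and control 4). The mean rose from 74.2 ± 39.9 to 608 ± 37.1 CPM (log2 fold change 3.04, SE 0.33, 95% interval 2.30 to 3.77, adjusted p = 0.000195 by edgeR). The coefficient of variation was 53.7% among control mice and 6.09% among deletion mice. By log2 fold change *Rasgrf2* ranked 57 among the 22173 tested genes.

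The size of the change depended on which controls entered. Without control 2 and control 4, an omission chosen after their values were seen, the log2 fold change of *Rasgrf2* was 3.94, and without control 1 and control 3 it was 2.49, with adjusted p = 1.05e-06 and 3.81e-06 by edgeR. *Rasgrf2* passed under all 20 alternatives, with the highest adjusted p, 0.00478, from robust dispersion estimates. The split among controls was not particular to this gene, since control 2 and control 4 were the controls nearest the deletion mean for 43.3% of the 1947 called genes, against 5.14% to 19.8% for every other pair of controls.

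The genes on either side of *Rasgrf2* were examined as well. *Ckmt2*, the mitochondrial creatine kinase gene 3514 bases away, had 8 to 34 counts per library and a log2 fold change of 0.47 (SE 0.42, adjusted p = 0.521 by edgeR). *Msh3*, a mismatch repair gene 80215 bases away on the other side, stood at a log2 fold change of -0.18 (SE 0.06, adjusted p = 0.0790). Neither passed the test.

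*Rasgrf2* is known as a transcript of cortical upper-layer neurons too, so the markers of cortical excitatory neurons were examined beside it. Of 10 such markers, 1 was called higher and 0 lower. This is 10% of the list, near the 8.78% of all tested genes called. The gene called was *Cux2*, a transcription factor gene of upper cortical layers (13.1 to 25.2 CPM, log2 fold change 0.95, adjusted p = 8.7e-05 by edgeR). In the same list *Lamp5* was lower in all 4 deletion mice than in any control without passing (23.3 to 15.5 CPM, log2 fold change -0.59, adjusted p = 0.0142), and *Rorb* was at -0.18 on the log2 scale (adjusted p = 0.116). The summed level of the 10 spanned 90.0 to 202 CPM among the controls and 83.6 to 208 CPM among the deletion mice. *Slc17a7*, the vesicular glutamate transporter gene of cortical projection neurons, was at 19.5, 11.0, 16.9 and 90.1 CPM in control 1 to 4. It was at 8.87, 7.32, 31.9 and 91.9 CPM in deletion 1 to 4, so control 4 and deletion 4 stood far above the other mice. The part of *Cux2*, *Slc17a7* or the other cortical markers in the *Rasgrf2* value was not tested.

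*Rasgrf1*, the paralog of *Rasgrf2* and the calcium-responsive RAS exchange factor most studied in striatal neurons, did not pass. It lies at chr9:89909908-90026977 (plus strand, GRCm38). Its levels were 158, 178, 207 and 194 CPM in control 1 to 4 and 183, 129, 198 and 207 CPM in deletion 1 to 4. The groups overlapped, with deletion 2 the lowest of all 8. The means were 184 ± 21.2 and 179 ± 35.0 CPM (log2 fold change -0.042, SE 0.13, 95% interval -0.34 to 0.25, adjusted p = 0.876 by edgeR). Without deletion 2 the log2 fold change was 0.088. Deletion 2 was also the library with the most choroid plexus RNA, with 9409 CPM of the transthyretin gene *Ttr* against 17.4 to 1791 CPM in the other 7, and the part of this in its *Rasgrf1* value was not tested.

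Within the same library, the ratio of the 2 paralogs does not depend on scaling. Per count of *Rasgrf1* there were 0.232, 0.606, 0.207 and 0.565 counts of *Rasgrf2* in control 1 to 4 and 3.27, 5.08, 3.11 and 2.74 in deletion 1 to 4. Every control was below 1 and every deletion mouse above it, also per kilobase of annotated exon, where the ratios were 0.248 to 0.726 and 3.28 to 6.09. The geometric mean of the ratios was 9.64-fold higher in deletion mice (difference 3.27 on the log2 scale, exact two-sided permutation test over 70 assignments, p = 0.0286, adjusted over 3 ratios 0.0429, higher in 4 of 4 deletion mice than in any control). The p of 0.0286 is the smallest that 4 mice against 4 can give.

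*Rasgrp2* lies on chromosome 19 (chr19:6399340-6415216, plus strand, GRCm38). The first of its RefSeq windows (GRCm38.p6, chr19:6399625-6399924, plus strand) is shown beside that of *Rasgrf2* because the gene moved the other way. Capitals mark GGGCGG, the letters of the GC box, or CCGCCC on the other strand, and copies that touch or share a base run together.
Rasgrp2: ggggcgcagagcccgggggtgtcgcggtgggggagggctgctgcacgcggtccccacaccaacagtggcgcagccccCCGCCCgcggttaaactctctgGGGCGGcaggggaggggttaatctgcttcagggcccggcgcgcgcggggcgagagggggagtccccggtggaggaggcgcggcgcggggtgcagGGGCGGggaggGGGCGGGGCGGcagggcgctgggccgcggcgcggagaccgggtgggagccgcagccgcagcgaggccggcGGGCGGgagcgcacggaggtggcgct
The window held 6 copies, and a second *Rasgrp2* window (chr19:6401455-6401754) held 2. The *Rasgrf2* window held 0 copies, and 35.7% of all 32851 windows held at least 1. Among the other members, the windows of *Rasgrf1*, *Rasgrp1* and *Sos2* held 2, 1 and 3 copies and those of *Rasgrp3* and *Sos1* held 0. G and C made up 80% of the first *Rasgrp2* window and 66% of the *Rasgrf2* window, and *Rasgrp4* had no entry.

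*Rasgrp2* was at 248, 171, 215 and 151 CPM in control 1 to 4, from 12335, 8147, 10778 and 7224 counts. It was at 90.4, 89.7, 98.7 and 87.8 CPM in deletion 1 to 4, from 6299, 5039, 6361 and 4484 counts. The groups did not overlap, the deletion mice lay within a narrow band, and the control mice were spread, with control 2 and control 4 nearest to the deletion mice. The means were 196 ± 43.6 and 91.7 ± 4.80 CPM (log2 fold change -1.10, SE 0.13, 95% interval -1.38 to -0.81, adjusted p = 0.000301 by edgeR). In bulk striatum, fewer cells that express a gene and less RNA of it per cell cannot be told apart.

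Of 10 MSN markers, 4 were called lower, *Ppp1r1b*, *Drd2*, *Penk* and *Pde10a*, and 0 higher, beside 3.91% of all tested genes called lower. *Tac1* (422 to 585 CPM, log2 fold change 0.47, adjusted p = 0.0365 by edgeR) and *Pdyn* (0.10, adjusted p = 0.843), markers of the same list, lay above 0 without passing. The summed level of the list was 6453 to 7350 CPM among the controls and 5557 to 6109 CPM among the deletion mice, and its median log2 fold change was -0.27, against -1.10 for *Rasgrp2*. The part of this marker difference in the *Rasgrp2* value was not tested. Without control 2 and control 4 the log2 fold change of *Rasgrp2* was -1.33, and without control 1 and control 3 it was -0.80, with adjusted p = 1.69e-05 and 0.000307 by edgeR. It passed under all 20 alternatives, with the highest adjusted p, 0.00187, without deletion 1.

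The gene after *Rasgrp2* moved in the opposite direction. *Nrxn2*, which encodes a presynaptic adhesion protein, starts 3514 bases away and rose from 46.2 ± 2.18 to 67.4 ± 6.35 CPM (log2 fold change 0.55, SE 0.07, adjusted p = 0.000542 by edgeR). *Pygm*, the muscle glycogen phosphorylase gene 880 bases away on the other side, had a log2 fold change of 0.27 (SE 0.13, adjusted p = 0.202) and did not pass. The transcript *Gm14965* shares 265 exonic bases with *Rasgrp2* on the opposite strand, 2.14% of its exons, and had 0 to 2 counts in any library.

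*Rasgrp1*, the diacylglycerol-responsive RAS exchange factor also called CalDAG-GEFII, had the highest level of the family and did not pass. It lies at chr2:117279993-117343001 (minus strand, GRCm38). Its levels were 556, 608, 511 and 628 CPM in control 1 to 4 and 628, 565, 652 and 681 CPM in deletion 1 to 4. The groups overlapped. The means were 576 ± 52.5 and 631 ± 49.5 CPM (log2 fold change 0.13, SE 0.08, 95% interval -0.04 to 0.31, adjusted p = 0.305 by edgeR). *Rasgrp2* counts per *Rasgrp1* count were 0.446, 0.281, 0.420 and 0.241 in control 1 to 4 and 0.144, 0.159, 0.151 and 0.129 in deletion 1 to 4. The highest deletion mouse was below the lowest control, and the difference was -1.21 on the log2 scale (exact two-sided permutation test, p = 0.0286, adjusted over 3 ratios 0.0429, lower in 4 of 4 deletion mice).

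*Rasgrp3*, which acts on both RAS and RAP1 and is known from B cells and blood vessels, was a low transcript at chr17:75435896-75529054 (plus strand, GRCm38). It was at 21.8, 17.9, 17.0 and 16.4 CPM in control 1 to 4 and at 16.7, 17.3, 16.2 and 16.4 CPM in deletion 1 to 4. Control 1 was above the other 7 mice, which overlapped. The means were 18.3 ± 2.42 and 16.7 ± 0.514 CPM (log2 fold change -0.13, SE 0.09, 95% interval -0.34 to 0.07, adjusted p = 0.374 by edgeR). Without control 1 the log2 fold change was -0.04. The 5 endothelial and 4 mural cell markers, which mark blood vessels, held 0 calls, beside 8.78% of all tested genes called. These markers are too few to set that count apart from the background.

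*Rasgrp4*, an exchange factor of mast cells, was close to absent, with 14, 22, 13 and 23 counts in control 1 to 4 and 37, 13, 30 and 9 counts in deletion 1 to 4. It lies at chr7:29134851-29153961 (plus strand, GRCm38). The groups overlapped from end to end, at 0.371 ± 0.117 and 0.351 ± 0.174 CPM (log2 fold change -0.05, SE 0.41, 95% interval -0.96 to 0.85, adjusted p = 0.949 by edgeR). The interval is wide, so a change in either direction could have gone without a call at these counts and this spread between mice. Of the 5 mast cell markers examined, *Cpa3*, *Mcpt4* and *Tpsb2* were at 0 in at least 1 library and were not tested. The other 2, *Kit* (34.4 to 35.1 CPM) and *Hdc* (5.10 to 6.56 CPM), were tested and did not pass (adjusted p = 0.843 and 0.260 by edgeR). *Rasgrp4* shares 978 exonic bases, 15.4% of its exons, with *Fam98c* on the opposite strand, and *Fam98c* was at 8.88 to 10.3 CPM, so the few *Rasgrp4* counts are uncertain where counting did not use strand.

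*Sos1* and *Sos2* encode the exchange factors that GRB2 brings to receptor tyrosine kinases. *Sos2* (chr12:69583762-69681852, minus strand, GRCm38) was at 47.2, 49.3, 47.3 and 46.3 CPM in control 1 to 4 and at 39.9, 43.3, 42.4 and 40.9 CPM in deletion 1 to 4. All 4 deletion mice were below all 4 controls, which held for 10.3% of all tested genes. The means were 47.5 ± 1.26 and 41.6 ± 1.51 CPM (log2 fold change -0.19, SE 0.05, 95% interval -0.30 to -0.08, adjusted p = 0.0234 by edgeR), which did not pass the threshold. DESeq2 on the same counts gave an adjusted p of 0.00486, which did.

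*Sos1* (chr17:80393751-80480453, minus strand, GRCm38) was at 49.8, 56.5, 46.6 and 51.9 CPM in control 1 to 4 and at 45.8, 45.7, 47.2 and 46.9 CPM in deletion 1 to 4. The groups overlapped through control 3. The means were 51.2 ± 4.17 and 46.4 ± 0.747 CPM (log2 fold change -0.14, SE 0.06, 95% interval -0.28 to -0.005, adjusted p = 0.155 by edgeR). *Sos2* counts per *Sos1* count ran from 0.873 to 1.02 in control mice and from 0.871 to 0.948 in deletion mice, with a difference of -0.05 on the log2 scale (exact two-sided permutation test, p = 0.400, adjusted over 3 ratios 0.400).

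**Figure D2:**
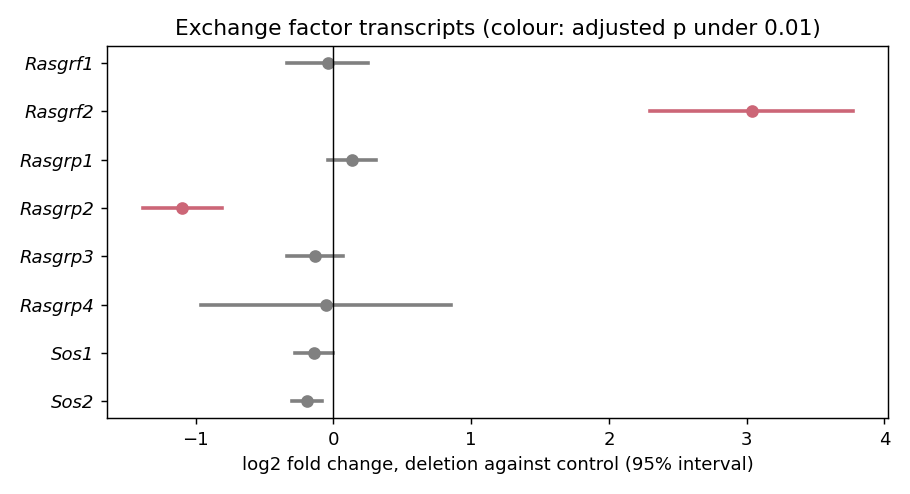
Log2 fold change of each exchange factor transcript, deletion against control, with its 95% interval worked back from the edgeR F-test of 4 mice against 4. Colour marks an adjusted p under 0.01. *Rasgrf2* lies at 3.04 and *Rasgrp2* at -1.10, the interval of *Rasgrp4* is the widest, and the intervals of *Rasgrf1*, *Rasgrp1*, *Rasgrp3* and *Rasgrp4* include 0.

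To set the members beside each other, levels were divided by the length of their annotated exons. In control mice the order of the level in CPM per kilobase was *Rasgrp1* at 103, *Rasgrf1* at 16.7, *Rasgrp2* at 15.8, *Rasgrf2* at 8.03, *Sos2* at 5.58, *Sos1* at 4.83, *Rasgrp3* at 3.13 and *Rasgrp4* at 0.0582. *Rasgrf1* and *Rasgrp2* did not differ beyond their spread (SD 1.91 and 3.52), nor did *Rasgrf2* and *Sos2* (SD 4.32 and 0.148). In deletion mice *Rasgrf2* came second to *Rasgrp1*, at 65.9 CPM per kilobase against 113, followed by *Rasgrf1* at 16.2, *Rasgrp2* at 7.40, *Sos2* at 4.89, *Sos1* at 4.38, *Rasgrp3* at 2.85 and *Rasgrp4* at 0.0552.

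The share of *Rasgrf2* in the summed CPM per kilobase of the 8 transcripts was 2.62, 7.10, 3.20 and 7.11% in control 1 to 4 and 30.4, 34.9, 30.2 and 27.8% in deletion 1 to 4. The mean share went from 5.01 ± 2.43% to 30.8 ± 2.98%, while that of *Rasgrp1* went from 65.4% to 52.5%, that of *Rasgrf1* from 10.7% to 7.51% and that of *Rasgrp2* from 10.2% to 3.45%. Shares add up to a fixed total, so a larger share of one gene lowers those of the others. The sum itself was 157 ± 10.4 CPM per kilobase in control mice and 214 ± 8.61 in deletion mice. *Rasgrp2* has 24 annotated transcripts, whose joined exons span 12384 bases against 2296 for its longest coding transcript. With the longest coding transcript as the length, a choice made after the data were seen, *Rasgrp2* was at 85.4 and 39.9 CPM per kilobase. It ranked 2 in control mice and 3 in deletion mice, and *Rasgrf2* ranked 4 and 2. The shares depended on this choice. By the coding length the mean share of *Rasgrp1* went from 41.5% to 37.7%, that of *Rasgrp2* from 32.1% to 12.5% and that of *Rasgrf2* from 4.83% to 32.9%.

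**Figure D3:**
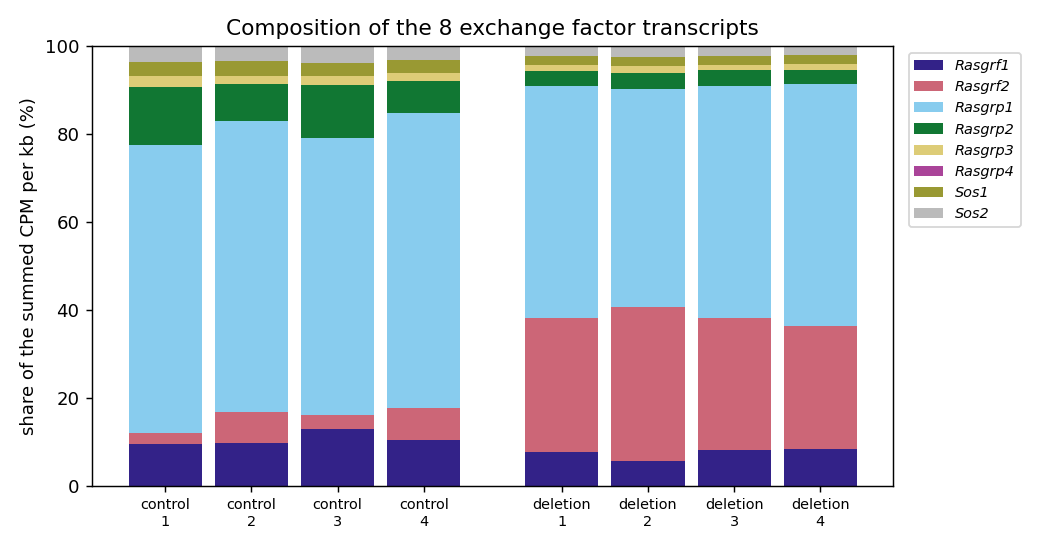
Share of each exchange factor in the summed CPM per kilobase of annotated exon of the 8 transcripts, 1 bar per mouse. The *Rasgrf2* segment takes 2.62% to 7.11% of the control bars and 27.8% to 34.9% of the deletion bars, and the *Rasgrp1* segment is the largest in all 8 bars.

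Across the 4 control mice, the levels of both called members ran in the order of *Bcl11b*. From control 4 through control 2 and control 3 to control 1, *Bcl11b* was at 281, 368, 446 and 477 CPM, *Rasgrp2* at 151, 171, 215 and 248 CPM and *Rasgrf2* at 110, 108, 42.9 and 36.6 CPM. The control mice with less *Bcl11b* thus had less *Rasgrp2* and more *Rasgrf2*, the direction in which the deletion mice lay. The order was not particular to them. *Hras* and *Ppp1r1b*, both called lower, ran in the same order of controls, while *Drd2* and *Rap1gap*, also called lower, did not. Control 2 and control 4 were the controls nearest the deletion mean for 43.3% of the 1947 called genes. With 4 mice this is a description, and a relation to the level of *Bcl11b* was not tested.

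**Figure D4:**
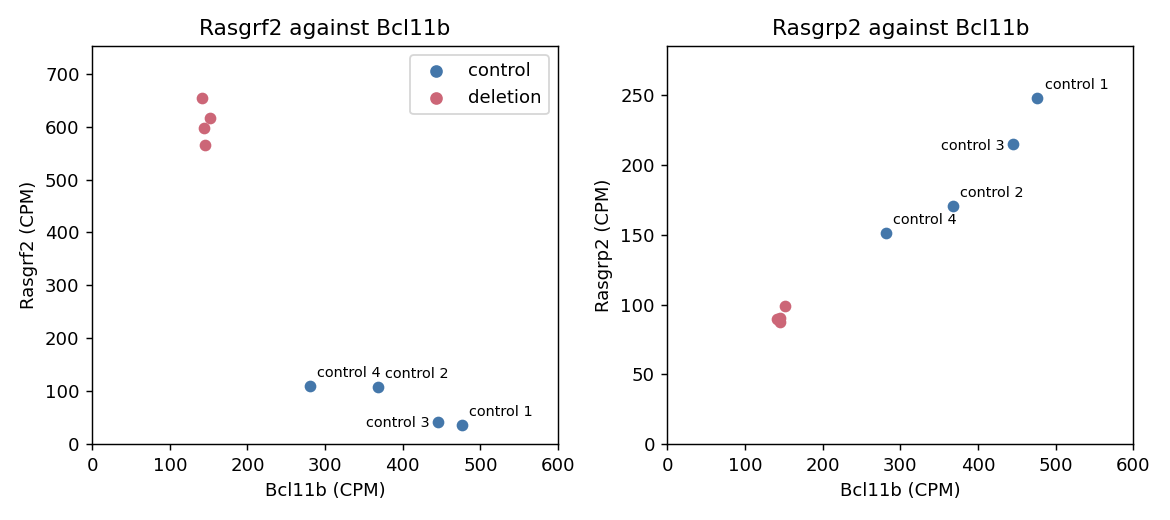
*Rasgrf2* (left) and *Rasgrp2* (right) against *Bcl11b* in each mouse, all in CPM, with the control mice named. Control mice run from 281 to 477 CPM of *Bcl11b*, deletion mice lie together at 141 to 151 CPM, and *Rasgrf2* in the control nearest to them is 110 CPM against at least 566 CPM in deletion mice.

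The genes whose profile over the 8 mice was nearest to *Rasgrf2* were sought by the root mean square difference of centred log2 CPM among 16325 genes with a mean of at least 1 CPM. They were *Upb1*, a pyrimidine breakdown enzyme (0.21), *Prtn3*, a neutrophil protease (0.27), and *Nts*, the neuropeptide neurotensin (0.28). Their levels went from 9.99 to 73.8, from 1.59 to 11.6 and from 7.88 to 48.7 CPM. Nearest to *Rasgrp2* were *Zbtb8a*, a zinc finger gene (0.0759), *Lrrc10b*, a leucine-rich repeat gene (0.0892), and *Fancb*, a DNA repair gene (0.0965). Their levels went from 10.6 to 5.26, from 269 to 132 and from 11.0 to 5.13 CPM. With 1 contrast in the design, nearness is mostly a like difference between the groups.

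The genes around the exchange factors were then counted by role. Across all tested genes the median log2 fold change was -0.0037, and 8.78% were called. The lists held 7 to 27 genes each and were chosen with earlier results of these data known. Their called shares were not tested against this background, and the calls per list are too few to set a list apart from it. Of 18 other exchange factors for RAS, RAP and RAL, 1 was called higher and 0 lower (median -0.01). It was *Rasgef1c*, of the RASGEF1 family, which rose from 35.9 to 56.7 CPM (log2 fold change 0.66, SE 0.09, adjusted p = 0.000686 by edgeR). The cAMP- and RAP-linked *Rapgef2*, at a log2 fold change of -0.14, did not pass (adjusted p = 0.144).

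Of 27 RAS family GTPases, 1 was called higher and 3 lower, 14.8% of the list (median -0.05). *Hras*, a classical RAS gene, was at 171, 142, 148 and 134 CPM in control 1 to 4 and at 102, 96.3, 93.1 and 102 CPM in deletion 1 to 4. The groups did not overlap, and the mean fell from 149 to 98.6 CPM (log2 fold change -0.59, SE 0.07, adjusted p = 0.000370 by edgeR). *Nras*, also a classical RAS gene, had a fold change of 0.00023 on the log2 scale (adjusted p = 0.999). *Rap1a* and *Rap1b*, the substrates of RASGRP2, had log2 fold changes of -0.0040 and -0.08 (adjusted p = 0.984 and 0.344). *Rasd2*, which encodes the striatum-rich RAS-like protein Rhes, fell from 402 to 264 CPM (log2 fold change -0.61, SE 0.10, adjusted p = 0.00242), and *Rerg*, a RAS-like growth inhibitor, fell from 13.3 to 4.35 CPM (log2 fold change -1.60, SE 0.16, adjusted p = 8.5e-05). *Diras1* rose from 65.7 to 82.0 CPM (adjusted p = 0.00663), but passed in only 2 of the 8 fits that left out 1 mouse, with the highest adjusted p, 0.0257, without deletion 3.

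GTPase-activating proteins, which switch the same GTPases off, moved in both directions. Of 10 RAS GTPase-activating proteins, 2 were called higher and 1 lower, 30% of the list (median -0.04). *Rasal1*, which responds to calcium, was at 24.0, 37.9, 35.2 and 38.8 CPM in control 1 to 4 and at 83.5, 77.1, 79.6 and 92.7 CPM in deletion 1 to 4. The groups did not overlap, and the log2 fold change was 1.29 (SE 0.13, adjusted p = 0.000118 by edgeR). *Rasa3* rose from 99.8 to 130 CPM (adjusted p = 0.00129), and *Dab2ip* fell from 92.6 to 63.2 CPM (adjusted p = 0.000639).

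Of 7 RAP GTPase-activating proteins, 1 was called higher and 1 lower, 28.6% of the list (median -0.23). *Rap1gap*, which turns RAP1 off, was at 438, 412, 467 and 374 CPM in control 1 to 4 and at 256, 208, 253 and 263 CPM in deletion 1 to 4. The groups did not overlap, and *Rap1gap* fell with *Rasgrp2*, which encodes a factor that turns RAP1 on (log2 fold change -0.79, SE 0.09, adjusted p = 0.000195 by edgeR). *Sipa1l2*, a postsynaptic RAP GTPase-activating protein, rose from 30.9 to 52.0 CPM (adjusted p = 0.000698).

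Upstream of the exchange factors, 16 adaptors that recruit SOS and 10 diacylglycerol kinases were counted. Of the adaptors, 0 were called higher and 1 lower (6.25% of the list, median -0.00), *Shc3*, the neuronal SHC adaptor, which went from 96.7 to 71.5 CPM (adjusted p = 0.00134 by edgeR). *Grb2*, at a log2 fold change of 0.25, did not pass (adjusted p = 0.0129). Diacylglycerol kinases remove the lipid that most RASGRP proteins bind, and 2 were called higher and 1 lower (30% of the list, median 0.12). *Dgkb*, a striatum-rich member, fell from 913 to 698 CPM (adjusted p = 0.000937), *Dgkq* rose from 36.1 to 45.2 CPM (adjusted p = 0.00201) and *Dgkg* rose from 63.0 to 107 CPM (adjusted p = 0.00317). *Dgkg* did not pass in 4 of the 8 fits that left out 1 mouse, namely without control 1, control 3, deletion 1 or deletion 4, with the highest adjusted p, 0.0128, without control 3.

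Downstream of RAS, the called shares of both lists were near the 8.78% of all tested genes. Of 11 RAF, MEK and ERK genes and their scaffolds, 0 were called higher and 1 lower (9.09% of the list, median -0.14). *Mapk3*, which encodes ERK1, went from 50.6 to 39.3 CPM (log2 fold change -0.36, SE 0.08, adjusted p = 0.00777 by edgeR), and it passed only without control 2 among the 8 fits that left out 1 mouse, with the highest adjusted p, 0.0280, without control 3. *Braf*, which encodes a RAF kinase, was at -0.20 on the log2 scale and did not pass (adjusted p = 0.0530). Of 10 transcripts known as targets or feedback regulators of ERK, 0 were called higher and 1 lower (10% of the list, median -0.29). *Etv5*, an ERK-responsive transcription factor gene, went from 71.2 to 53.8 CPM (adjusted p = 0.00700) and did not pass without control 3, control 4, deletion 2, deletion 3 or deletion 4, with the highest adjusted p, 0.0279, without deletion 3. RNA levels do not measure the activity of RAS, RAP or ERK.

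**Figure D5:**
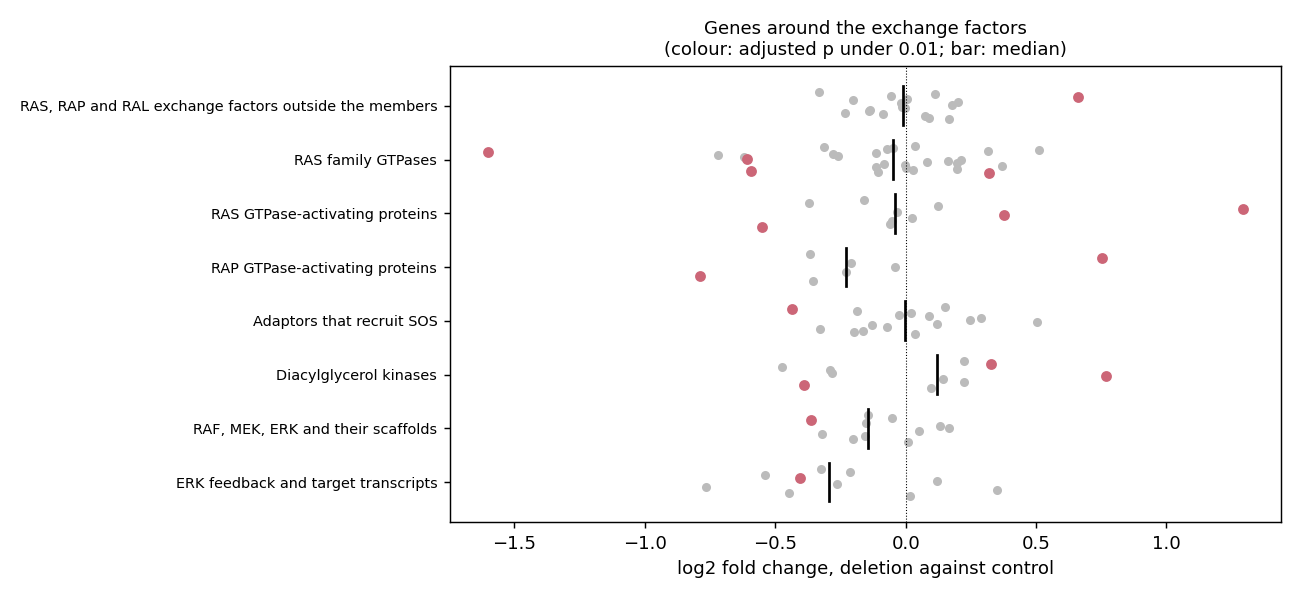
Log2 fold change, deletion against control, of each tested gene in 8 lists of genes around the exchange factors; each point is a gene, colour marks an adjusted p under 0.01, the black bar is the median of the list and the dotted line is 0. *Rerg* at -1.60 and *Rasal1* at 1.29 are the outermost points, the list medians run from -0.29 to 0.12, and coloured points lie on both sides of 0.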

How the data were processed

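Striatal RNA of 4 deletion and 4 control mice was analysed from the table of raw counts per gene that the authors deposited. Per the labels and the methods, with strand and multimapping settings not given in the sources used here, reads were trimmed with Trim Galore 0.6.4, aligned to GRCm38 with STAR 2.7.2b and counted with featureCounts. The deposited log2 values, which the authors made with the rlog transformation of DESeq2, were used only in 1 alternative.

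Counts were tested with edgeR 4.0.16 in R 4.3.3 (filterByExpr with a minimum count of 10 and a minimum total of 15, TMM, quasi-likelihood F-test, group alone, threshold 0.01). Ratios were compared by exact permutation over 70 assignments, with a threshold of an unadjusted p under 0.05. Gene lengths were taken from GENCODE annotation of GRCm38, and promoter windows (7 of 8 members matched by symbol) from RefSeq GRCm38.p6. The members and the lists were chosen with earlier results of these data known. Genes named are all members, up to 4 called genes of each list with the smallest p, and classical GTPases and effectors. Neighbouring and overlapping genes and the 3 genes nearest each called member are named too. *Slc17a7*, *Cux2*, *Lamp5*, *Rorb*, *Tac1*, *Pdyn*, *Ttr*, *Rapgef2*, *Grb2*, *Kit* and *Hdc* were named after their values were seen. Alternatives were DESeq2 1.42.0, limma-voom and limma 3.58.1 on the deposited log2 values, RLE or library sizes alone, no filter or at least 1 CPM in 4 mice, robust dispersion, thinning to the smallest library, the replicate number as a block, and each mouse left out. The omissions of 2 controls and the coding transcript lengths were added after the data were seen. The fits were tested on simulated data. Names of 26 features had been turned into dates, and these stayed in the fit.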

Additional observations from a re-analysis of the deposited data

How the results depend on the processing

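*Rasgrf2* and *Rasgrp2* kept their direction and their side of the threshold under all 20 alternatives. With 1 mouse left out, their log2 fold changes ran from 2.81 to 3.29 and from -1.20 to -0.96. *Rasgrp1*, *Rasgrp3*, *Sos1* and *Sos2* kept their sign under the same alternatives, but with 1 mouse left out *Rasgrf1* ran from -0.12 to 0.088 and *Rasgrp4* from -0.33 to 0.16, and omitting control 2 and control 4 *Rasgrp4* was at 0.40. *Rasgrp4* was not tested where at least 1 CPM was asked for. With DESeq2, *Sos2* was at -0.19 with an adjusted p of 0.00486, so that 2 members were called lower.

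The ratio tests had a threshold of their own, an unadjusted p under 0.05. It could not be reached with 2 controls omitted or with the replicate block. With 2 controls omitted, for which the smallest p is 0.0667, the *Rasgrf2* to *Rasgrf1* difference was 3.98 (without control 2 and control 4) and 2.56 (without control 1 and control 3), and the *Rasgrp2* to *Rasgrp1* difference -1.57 and -0.84, each at p = 0.0667 by exact permutation. The *Sos2* to *Sos1* difference turned to 0.022 without control 1 and control 3. Same-numbered mice did not deviate together (correlations -0.03, -0.39, -0.01 and 0.08). With 4 mice per group such correlations cannot exclude a pairing by replicate number, so the number was also used as a replicate block. The ratio differences were then 3.27 and -1.21, each at p = 0.125 by exact sign flips, the smallest that 4 pairs allow. In the same block *Rasgrf2* and *Rasgrp2* were at 3.20 and -1.07, both past the threshold of the edgeR fit.

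Over all genes, 1079 were called higher and 868 lower; DESeq2 called 1747 and 1566, the replicate block 673 and 492, and the fit without control 1 and control 3 407 and 242, while leaving out 1 mouse gave 631 to 1160 and 471 to 906. Of 320 counts of list genes under alternatives, 59 moved by over 1.5 times. Beside the genes named in the report, omitting control 1 and control 3 moved *Rasd2*, *Rasa3*, *Shc3*, *Dgkb* and *Dgkq* out of the calls, to adjusted p of 0.0114 to 0.0324 by edgeR, and omitting control 2 and control 4 took *Dgkq* to 0.0142. The low counts of *Rasgrp4* limit what could be seen there.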
